A study of Mus musculus with 2 samples.

Results

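The genes described here are 10 genes of oxysterol synthesis, the liver X receptors (LXR) and cholesterol efflux, read from RNA sequencing of mouse macrophages. They were taken by symbol, and rows of the same symbol were summed. All 10 were listed in both files, among 23444 gene symbols. There were 2 libraries of bone marrow derived macrophages of the inbred strain FVB, 1 per group. The first group was RON TK-/- (labelled RON deficient) and the second was WT (labelled RON proficient). RON is a receptor tyrosine kinase of macrophages, encoded by Mst1r. Recombinant interleukin-4, which drives the alternative (M2) state of macrophages, is given as the treatment of both groups, with a dose of 10 ng/mL and a duration of 72 hours. The series compares macrophages with and without RON under that treatment. With 1 library per group no test could be run, and every difference below is one between these libraries, not between the conditions; genotype and library cannot be told apart.

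Oxysterols are cholesterol molecules that carry an extra hydroxyl group, and they are the ligands of LXR. LXR pairs with a retinoid X receptor (RXR) on DNA and raises genes that move cholesterol out of the cell, among them the transporters ABCA1 and ABCG1 and their partner apolipoprotein E. In macrophages this route handles cholesterol taken up with lipoproteins and dying cells, and cholesterol that is not exported is stored as ester by the enzyme SOAT1.

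The libraries differed in depth and in activation state. The deposited coverage implied 6.71e+07 reads for the library labelled as RON TK-/- and 5.98e+07 reads for the library labelled as WT. Marker genes of the interleukin-4 response were high in the library labelled as RON TK-/-, with Arg1 at 5041 FPKM (read fragments over transcript length and library size), Chil3 at 4604 and Retnla at 3665. In the library labelled as WT Arg1 was at 1.0 FPKM, and Chil3 and Retnla were listed at 0, so its profile went against its label of interleukin-4 treatment. The inflammatory genes Tnf, Nos2 and Il1b had the opposite order. Tnf, Nos2 and Il1b had 0.52, 3.63 and 0.20 FPKM in the library labelled as RON TK-/-, against 1262, 1100 and 823 FPKM in the library labelled as WT. Mst1r was listed at 0 FPKM in both libraries, where 3 reads would have given 0.0095 FPKM in the library labelled as RON TK-/- and 0.011 FPKM in the library labelled as WT, so it checked neither label. The macrophage genes Csf1r, Cd68, Lyz2 and Emr1 were abundant in both. Fibroblast and stromal markers were also present, with 6 of 7 detected and summed levels of 899 FPKM in the library labelled as RON TK-/- and 674 FPKM in the library labelled as WT. The median log2 ratio of the detected stromal markers was 0.52, below the 0.57 of all detected genes, and with 0.57 subtracted 1 of them, Col3a1, passed 2-fold (171 FPKM in the library labelled as RON TK-/- and 48.5 FPKM in the library labelled as WT). Activation state moved with the groups, and its part in the values below was not tested, nor was that of stromal RNA.

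The members did not move together. In the library labelled as RON TK-/- Abcg1, Mylip and Soat1 were higher by 2-fold or more, Cyp7b1 was lower by more than 2-fold, and the other 6 lay within 2-fold. Ratios here are differences of log2 (FPKM + 1), library labelled as RON TK-/- minus library labelled as WT, a scale that understates differences of low genes. A gene was taken as detected from 1 FPKM in either library, which held for all 10 members. Cyp7b1 reached that minimum only in the library labelled as WT, where it was the higher. Of 11288 detected genes 25.6% were higher by 2-fold or more and 8.71% lower by as much on that scale, so 3 and 1 of 10 members lay near the shares among all genes. The median ratio of all detected genes was 0.57, while the median over the members was 0.34. Once 0.57 was subtracted from every ratio, 2 members were higher (Abcg1 and Mylip) and 2 lower (Cyp7b1 and Apoe), against 8.38% and 14.4% of all detected genes.

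**Figure D1:**
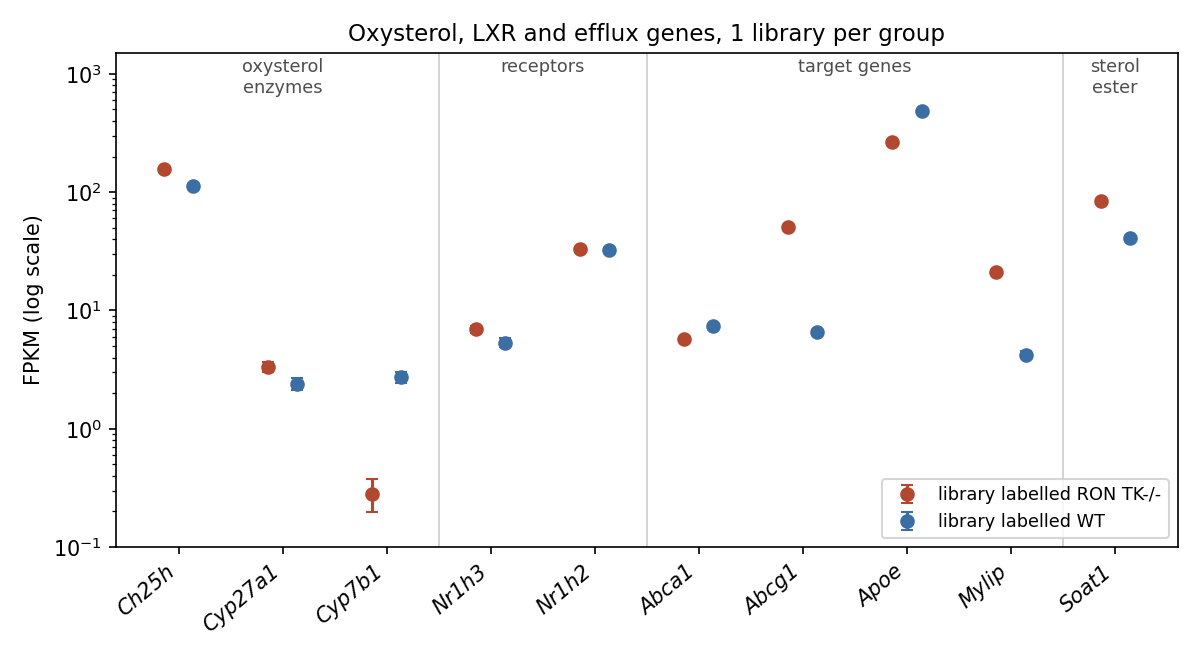
FPKM of the 10 members on a log axis, with the library labelled as RON TK-/- left of the library labelled as WT for each gene. Points are single libraries and bars are 95% counting intervals, most of them smaller than the point. Abcg1 and Mylip show the widest gaps upward, and Cyp7b1 the widest gap downward.

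Among the enzymes, Ch25h was by far the most abundant. It encodes cholesterol 25-hydroxylase, which makes 25-hydroxycholesterol and is known as an interferon-inducible gene of macrophages. Ch25h had 157 FPKM in the library labelled as RON TK-/- and 113 FPKM in the library labelled as WT, which rest on about 13741 and 8894 estimated reads. The ratio of FPKM was 1.39, with a 95% interval of 1.35 to 1.42 that covers counting error only, as do all intervals given here. Cxcl10, a classical interferon-induced chemokine gene listed here with the inflammatory genes, was named after its value was seen. As deposited it had the opposite order, 0.23 FPKM in the library labelled as RON TK-/- against 4711 FPKM in the library labelled as WT. Whether interferon had a part in the level of Ch25h was not tested. On the scale of log2 (FPKM + 1) the ratio of Ch25h was 0.47, or -0.10 with the median of all detected genes subtracted, and the ratios of 56.1% of detected genes were higher. In mm10 coordinates Ch25h occupies bases 34473784 to 34475135 of chromosome 19, as 1 exon. GENCODE M21 annotates the noncoding gene Gm26902 on the opposite strand, with 159 bases of overlapping exon. Whether the counting used strand is not stated, so reads in that overlap cannot be told apart.

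Cyp27a1 encodes the mitochondrial sterol 27-hydroxylase, which makes 27-hydroxycholesterol. It was a low gene, with 3.35 FPKM in the library labelled as RON TK-/- and 2.38 FPKM in the library labelled as WT. The FPKM ratio was 1.41 (1.20 to 1.64), close to that of Ch25h. Its log2 ratio of 0.36 became -0.20 with the median of all detected genes subtracted, so its direction depended on that scaling, as did that of Ch25h. Per length, Ch25h stood 47.0-fold above Cyp27a1 in the library labelled as RON TK-/- and 47.6-fold above it in the library labelled as WT, so this proportion was close in both libraries.

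Cyp7b1 stood apart from the other enzymes. Its product, oxysterol 7alpha-hydroxylase, inactivates 25- and 27-hydroxycholesterol towards bile acids. Cyp7b1 had 0.28 FPKM (0.20 to 0.38) in the library labelled as RON TK-/- and 2.71 FPKM (2.43 to 3.01) in the library labelled as WT. That is a 9.75-fold lower level, with a counting interval of 6.99 to 14.0, on 39 estimated reads in the library labelled as RON TK-/- against 344 in the library labelled as WT. On the scale with 1 added the log2 ratio was -1.54, and 5.73% of detected genes had a lower one. Per length, the ratio of Ch25h to Cyp7b1 was 566 in the library labelled as RON TK-/- and 41.8 in the library labelled as WT. The gene spans 18071950 to 18243338 on chromosome 3.

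Of the receptors, Nr1h2 was nearly equal in the libraries and Nr1h3 somewhat higher in the library labelled as RON TK-/-. Nr1h2, which encodes the widely expressed LXR beta, had 33.1 FPKM in the library labelled as RON TK-/- and 32.6 FPKM in the library labelled as WT. Its FPKM ratio was 1.02 with an interval of 0.97 to 1.06, so no difference was seen beyond counting error. Nr1h3 encodes LXR alpha, the form found mainly in liver, fat and macrophages. It had 6.91 FPKM in the library labelled as RON TK-/- and 5.35 FPKM in the library labelled as WT, a ratio of 1.29 (1.16 to 1.44). With the median of all detected genes subtracted, the log2 ratio was -0.54 for Nr1h2 and -0.25 for Nr1h3, so the sign of both depended on that scaling. GENCODE M21 annotates Gm13783 on the same strand as Nr1h3, with 34 bases of overlapping exon. Nr1h2 was the more abundant receptor, 4.79-fold above Nr1h3 in the library labelled as RON TK-/- and 6.09-fold above it in the library labelled as WT.

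The receptors were the only members with several listed transcripts. Nr1h2 had 4 on chromosome 7 between 44549616 and 44553965, and their lengths differed by few bases. The forms of 2006, 2009 and 2015 bases took 26.6%, 34.5% and 37.7% of the gene in the library labelled as RON TK-/- and 30.3%, 36.5% and 33.2% in the library labelled as WT. The form of 2022 bases had 0.41 FPKM in the library labelled as RON TK-/- and 5.0e-05 FPKM in the library labelled as WT. Nr1h3 had 2 transcripts on chromosome 2 between 91184061 and 91195116, and the shorter, of 1802 bases, made up 64.0% of the gene in the library labelled as RON TK-/- and 69.2% in the library labelled as WT. Reads of 50 bases may not tell such similar forms apart, so these shares are estimates with an error that was not given.

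**Figure D2:**
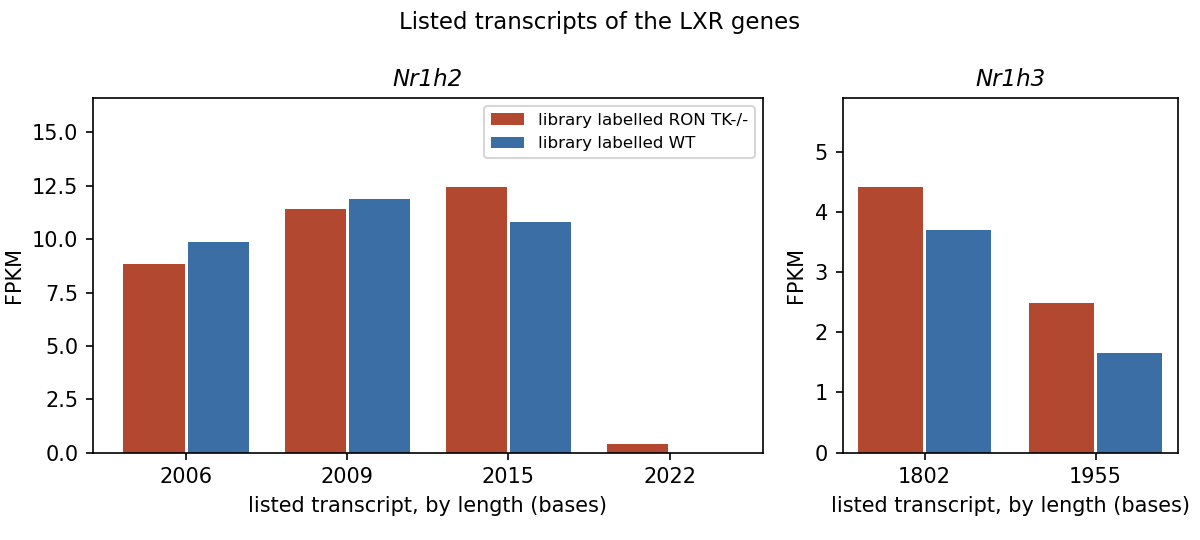
FPKM of each listed transcript of Nr1h2 and Nr1h3, named by its length in bases, with bars for the library labelled as RON TK-/- left of those for the library labelled as WT. For Nr1h2 the 3 shorter forms have similar bars in both libraries, and the form of 2022 bases is near 0.

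The target genes of LXR split between the libraries. Abcg1, which encodes a transporter that exports cholesterol to high density lipoprotein, had 51.0 FPKM in the library labelled as RON TK-/- and 6.57 FPKM in the library labelled as WT. The ratio of FPKM was 7.76 (7.43 to 8.11), and on the log2 scale with 1 added it was 2.78. Only 129 of 11288 detected genes (1.14%) had a higher ratio. By abundance Abcg1 was rank 1390 among all symbols in the library labelled as RON TK-/- and rank 5712 in the library labelled as WT. It lies on chromosome 17 from 31057694 to 31117981.

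Abca1 had the other order. This transporter passes cholesterol and phospholipid to lipid-poor apolipoprotein A-I, and its gene is a textbook LXR target. Abca1 had 5.72 FPKM in the library labelled as RON TK-/- and 7.39 FPKM in the library labelled as WT, a ratio of 0.77 (0.74 to 0.81). Its log2 ratio was -0.32, or -0.89 with the median of all detected genes subtracted. The levels of the transporters thus stood in different proportion in the libraries. Abcg1 was 8.92-fold above Abca1 in the library labelled as RON TK-/-, whereas it was 0.89 of Abca1 in the library labelled as WT.

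Apoe encodes apolipoprotein E, which macrophages secrete as an acceptor of exported cholesterol, and it was the most abundant member in both libraries. It had 265 FPKM in the library labelled as RON TK-/- and 486 FPKM in the library labelled as WT. The ratio was 0.55 (0.54 to 0.56), and the log2 ratio with 1 added was -0.87, within 2-fold as deposited but -1.43 with the median of all detected genes subtracted. Apoe was rank 264 in the library labelled as RON TK-/- and rank 134 in the library labelled as WT. It was 5.20-fold above Abcg1 in the library labelled as RON TK-/- and 73.9-fold above it in the library labelled as WT.

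Mylip, also called Idol, encodes a ubiquitin ligase that marks lipoprotein receptors for degradation and so limits uptake when LXR is active. It had 21.0 FPKM in the library labelled as RON TK-/- and 4.23 FPKM in the library labelled as WT. The ratio was 4.96 (4.59 to 5.37), with a log2 ratio of 2.07 on the scale with 1 added, and 3.20% of detected genes had a higher one.

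Promoter sequences are shown for Abca1 and Mylip, since both are LXR targets and their ratios lay on opposite sides of the median of all detected genes. The RefSeq table (GRCm38.p6) held windows from 250 bases before to 50 bases after a start for 8 members, with 11 windows in all; Abcg1 and Cyp7b1 were not in it. The LXR element was searched as a direct repeat of AGGTCA with 4 bases between the copies, on both strands. With up to 2 mismatches over its 12 fixed bases it was in 0 of the 11 windows and in 3.02% of all 32851 windows of the table. With up to 3 mismatches, a limit set after seeing the sequences, 1 window held it, that of Abca1, and 21.9% of all windows did. That match lay on the strand opposite to the transcript and reads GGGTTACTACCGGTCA there, at chr4:53159947-53159962, beginning 67 bases before the start. The sequence TATAAA, also looked for after the windows were seen and only on the transcript strand, began 29 bases before the start in Abca1 and 32 bases before it in Mylip. Between 20 and 40 bases before the start it was in 1.99% of all windows. Farther away, TATAAA also began 151 bases before the start in Ch25h and 96 bases before a start of Apoe. At any position it was in 8.32% of all windows. Capitals below mark the LXR-like match and TATAAA in Abca1 (chr4:53159846-53160145, minus strand) and TATAAA in Mylip (chr13:45389492-45389791, plus strand).
Abca1: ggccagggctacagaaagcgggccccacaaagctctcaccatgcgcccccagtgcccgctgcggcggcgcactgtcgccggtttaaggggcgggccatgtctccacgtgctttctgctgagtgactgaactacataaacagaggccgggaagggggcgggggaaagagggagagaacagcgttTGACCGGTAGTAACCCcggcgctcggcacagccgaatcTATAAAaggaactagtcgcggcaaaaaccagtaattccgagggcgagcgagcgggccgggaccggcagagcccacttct
Mylip: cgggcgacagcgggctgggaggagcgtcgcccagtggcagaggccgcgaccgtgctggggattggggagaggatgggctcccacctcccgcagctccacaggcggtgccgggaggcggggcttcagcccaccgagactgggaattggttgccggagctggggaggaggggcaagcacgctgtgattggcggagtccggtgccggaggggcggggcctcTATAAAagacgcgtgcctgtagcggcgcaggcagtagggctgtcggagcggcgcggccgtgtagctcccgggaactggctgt

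The other motifs were in none of the 11 member windows. They were the STAT sites TTCNNNGAA (in 8.30% of all windows) and TTC and GAA with 4 bases between (6.95%), the interferon element of GAAA repeated after 2 bases (3.44%) and the sterol element TCACNCCAC (1.24%), each on both strands. A match or its lack describes these letters in these windows only.

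Soat1 encodes the enzyme that esterifies cholesterol for storage in lipid droplets. It had 84.1 FPKM in the library labelled as RON TK-/- and 40.9 FPKM in the library labelled as WT, on about 25444 and 11092 estimated reads. The ratio was 2.06 (2.01 to 2.10), and the log2 ratio with 1 added was 1.02, just past the limit of 2-fold. The ratios of 24.5% of detected genes were higher. Its log2 ratio was under 2-fold on the TPM scale (0.97), with a pseudocount of 5 (0.96) and with the median of all detected genes subtracted (0.46). Apoe, at -0.87, was the member nearest to the limit from the other side.

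**Figure D3:**
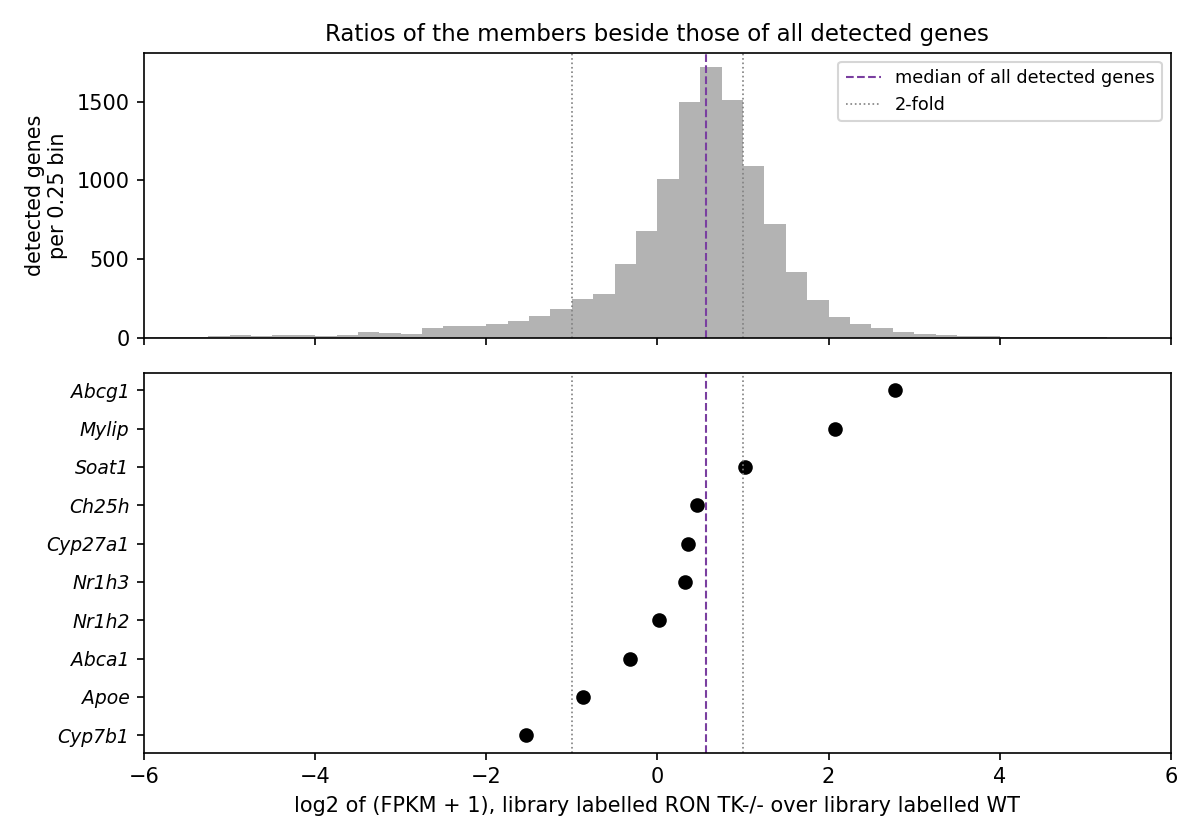
Histogram of the log2 ratio of (FPKM + 1), library labelled as RON TK-/- over library labelled as WT, for all 11288 detected genes in bins of 0.25 (upper panel) and the same ratio for each member (lower panel). The axis ends at 6 on either side, and 56 genes lie beyond it. The dashed line is the median of all detected genes (0.57) and dotted lines mark 2-fold. Abcg1 and Mylip lie on the right side of the histogram and Cyp7b1 and Apoe on the left.

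The order of the members by level was the same for the first 3 genes in both libraries and differed below them. Apoe, Ch25h and Soat1 led. Abcg1 was number 4 of the 10 in the library labelled as RON TK-/- and number 6 in the library labelled as WT. Mylip was number 6 and Abca1 number 8 in the library labelled as RON TK-/-, against number 8 for Mylip and number 5 for Abca1 in the library labelled as WT. Of the neighbours in the order, only Cyp7b1 and Cyp27a1 in the library labelled as WT had counting intervals that met. Those intervals leave out any variation between cultures, which these libraries cannot give.

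The wider pathway was described by a list of 81 further genes, all found in the files. Of these, 61 were detected, 27 were higher by 2-fold or more in the library labelled as RON TK-/- and 2 lower by as much, with a median log2 ratio of 0.81 beside 0.57 for all detected genes. The shares among all detected genes were 25.6% higher and 8.71% lower, and 76.4% of them lay above 0. With 0.57 subtracted, 13 pathway genes were higher and 7 lower, beside 8.38% and 14.4% of all detected genes. The counts by role below are small and stand beside these same shares. Fdxr, Ncoa1 and Soat2, counted as higher, reached 1 FPKM only in the library labelled as RON TK-/-, where they were the higher.

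Of 12 detected LXR partners and coregulators, 10 lay above a log2 ratio of 0, near the 76.4% among all detected genes. Rxra, an RXR gene, had 12.6 FPKM in the library labelled as RON TK-/- against 1.64 FPKM in the library labelled as WT, a log2 ratio of 2.36. Rxrb had 10.3 FPKM in the library labelled as RON TK-/- and 3.50 FPKM in the library labelled as WT, and Rxrg was listed at 0 in both. Of the 12, 6 passed 2-fold upward in the library labelled as RON TK-/- and 0 downward, beside 25.6% and 8.71% of all detected genes. With 0.57 subtracted 3 passed 2-fold, Rxra, Ncoa1 and Tbl1xr1, while Rxrb and Ncoa2 lay within it. Also among the 6 were the coactivators Ncoa1 and Ncoa2 and the corepressor complex subunit Tbl1xr1. They had 5.85, 5.28 and 10.3 FPKM in the library labelled as RON TK-/-, against 0.88, 1.63 and 2.14 FPKM in the library labelled as WT.

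LXR target genes outside the members went both ways. Of 11 detected, 5 were at least 2-fold higher and 1 lower, beside 25.6% and 8.71% of all detected genes. With 0.57 subtracted 3 were higher (Scd2, Scd1 and Arl4c) and 4 lower, beside 8.38% and 14.4%. Scd2 and Scd1, which encode stearoyl-CoA desaturases, had 245 and 20.4 FPKM in the library labelled as RON TK-/- against 4.87 and 1.92 FPKM in the library labelled as WT. Arl4c (a small GTPase), Pltp (the phospholipid transfer protein) and Cd5l (a secreted macrophage protein) had 68.6, 76.4 and 4.38 FPKM in the library labelled as RON TK-/-, against 19.8, 35.9 and 1.19 FPKM in the library labelled as WT. Mertk, a receptor for dying cells, had 9.68 FPKM in the library labelled as RON TK-/- and 32.5 FPKM in the library labelled as WT. Srebf1, the regulator of fatty acid synthesis that LXR induces, had 21.9 FPKM in the library labelled as RON TK-/- and 32.7 FPKM in the library labelled as WT, a log2 ratio of -0.56. The other genes lower once 0.57 was subtracted were Lpl and Smpdl3a, named after their values were seen, with 97.6 and 88.6 FPKM in the library labelled as RON TK-/- and 169 and 135 FPKM in the library labelled as WT.

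**Figure D4:**
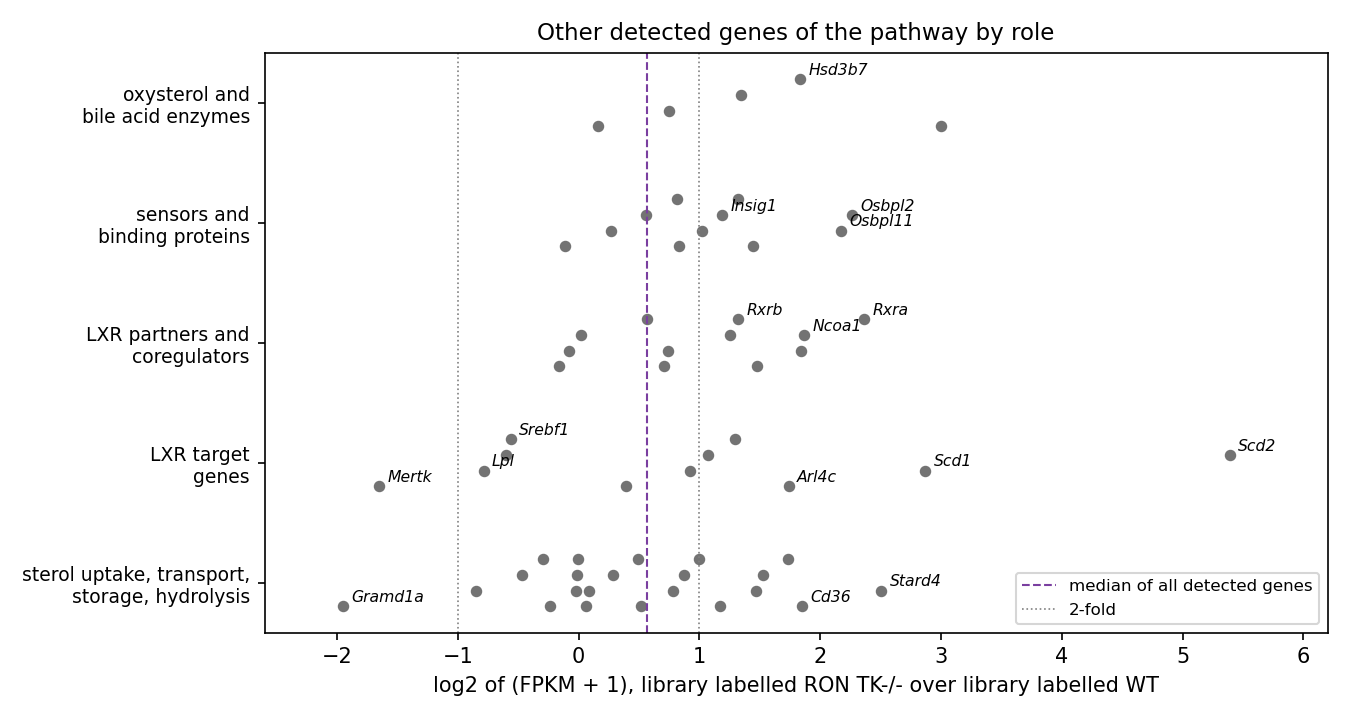
Log2 ratio of (FPKM + 1), library labelled as RON TK-/- over library labelled as WT, for the 61 other detected pathway genes, grouped by role. Points are genes, spread vertically for legibility, the dashed line is the median of all detected genes (0.57), and dotted lines mark 2-fold. LXR target genes range from Mertk at -1.65 to Scd2 at 5.39.

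Of 5 further oxysterol enzymes detected, 3 passed 2-fold upward in the library labelled as RON TK-/-, and of 11 sensors and binding proteins 6 did, beside 25.6% of all detected genes. With 0.57 subtracted 2 enzymes and 2 sensors passed 2-fold, beside 8.38%, and Fdxr, Insig1, Osbp, Osbpl9 and Osbpl5 lay within it. Among the enzymes were Hsd3b7, which acts after 7alpha-hydroxylation of oxysterols, and Fdxr, a reductase that feeds mitochondrial P450 enzymes such as CYP27A1. They had 57.7 and 3.93 FPKM in the library labelled as RON TK-/-, against 15.5 and 0.95 FPKM in the library labelled as WT. Insig1, whose product binds oxysterols and holds the SREBP complex in the endoplasmic reticulum, had 70.5 FPKM in the library labelled as RON TK-/- and 30.4 FPKM in the library labelled as WT. The rest of the 6 sensors past 2-fold, of 11 detected, were the oxysterol binding protein genes Osbpl2, Osbpl11, Osbpl9, Osbp and Osbpl5. They had 12.3, 24.4, 73.8, 18.2 and 4.46 FPKM in the library labelled as RON TK-/-, against 1.77, 4.62, 26.4, 6.68 and 1.68 FPKM in the library labelled as WT. Gpr183, the receptor for a dihydroxylated oxysterol made by CH25H and CYP7B1, had 0.96 FPKM in the library labelled as RON TK-/- and was listed at 0 in the library labelled as WT, below the detection minimum in both.

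Genes of sterol uptake, transport, storage and hydrolysis held examples of both directions. Of 22 detected, 7 were at least 2-fold higher, 1 was lower and 14 lay within 2-fold, beside 25.6% and 8.71% of all detected genes. Their median log2 ratio of 0.39 was below the 0.57 of all detected genes, and with 0.57 subtracted 3 were higher (Stard4, Cd36 and Soat2) and 3 lower, beside 8.38% and 14.4%. The sterol carrier Stard4 had 16.2 FPKM in the library labelled as RON TK-/- and 2.03 in the library labelled as WT. The scavenger receptor gene Cd36, the lysosomal exporter gene Npc1 and Soat2, a second esterification enzyme, had 376, 67.2 and 2.70 FPKM in the library labelled as RON TK-/-, against 104, 22.7 and 0.11 FPKM in the library labelled as WT. Gramd1b and Gramd1a, which encode carriers of cholesterol from the plasma membrane to the endoplasmic reticulum, went opposite ways, with 12.2 and 13.3 FPKM in the library labelled as RON TK-/- against 3.75 and 54.3 FPKM in the library labelled as WT. Besides Gramd1a, the genes lower once 0.57 was subtracted were the scavenger receptor gene Msr1 and Stard3, named after their values were seen. They had 120 and 17.9 FPKM in the library labelled as RON TK-/-, against 216 and 25.1 FPKM in the library labelled as WT.

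Cell type markers were checked beside these values. Of 43 markers of other cell types found, 20 were listed at 0 in both libraries. Neutrophil markers reached at most 1.75 FPKM in the library labelled as RON TK-/- and 1.44 in the library labelled as WT, while markers of T, B and NK cells, mast cells and basophils, eosinophils, erythroid and dendritic cells all stayed below 1 FPKM. Stromal genes were the exception, with Col1a2 at 433 FPKM in the library labelled as RON TK-/- and 407 FPKM in the library labelled as WT. The osteoclast gene Ctsk had 53.1 FPKM in the library labelled as RON TK-/- and 13.2 FPKM in the library labelled as WT. Ocstamp, also of the osteoclast list, had 2.83 FPKM in the library labelled as RON TK-/-. It was listed at 0 in the library labelled as WT. Dcstamp stayed below 1 FPKM in both libraries, and Calcr was listed at 0 in both. The macrophage gene Fcgr1 had 3.58 FPKM in the library labelled as RON TK-/- against 26.6 FPKM in the library labelled as WT. In bulk RNA, fewer cells of a type and less RNA per cell cannot be told apart.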

How the data were processed

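Total RNA was sequenced as single reads of 50 bases from TruSeq libraries, per the labels. For each library the authors deposited FPKM for every RefSeq transcript, in columns that carry the names Cufflinks uses, per the file headers. The mean coverage (signal) per base of each transcript was deposited beside it, per the file headers. The build mm10 and the program DESeq are named in the submitters' processing notes, with no role or version. Which aligner and which annotation release made the values is not stated in the labels.

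Rows (31580 in either library) were summed by gene symbol. Estimated reads were coverage times length over read length, and the implied library size came from the median of coverage over FPKM. Exact Poisson intervals per library and exact binomial intervals for a ratio (95%) were computed on the rounded estimates and cover counting error only. Ratios used a pseudocount of 1 FPKM, a detection minimum of 1 FPKM and a limit of 2-fold. With 1 library per group there was no p-value. The calculation was tested on simulated data. Tools were Python 3.11.15, pandas 2.3.3, numpy 2.4.6 and scipy 1.17.1.

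The members and lists were chosen with earlier results of these data known. The text names the 10 members, 6 profile genes, Mst1r and, per role, up to 6 further pathway genes past 2-fold with the largest ratio, besides Rxra, Rxrb, Rxrg, Gpr183, Srebf1 and Insig1; some genes that this rule names are not reported here. Other genes were named after their values were seen. Alternatives were pseudocounts of 0.1 and 5, no minimum or 5 FPKM, subtraction of the median ratio, TPM, the most abundant row only, and limits of 1.5-fold and 4-fold. Protein sequences were not used here.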

Additional observations from a re-analysis of the deposited data

How the results depend on the processing

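Abcg1 and Mylip were at least 2-fold higher under every alternative run, with log2 ratios of 2.21 to 2.94 and 1.49 to 2.28. At 4-fold they were the 2 members counted as higher. The number of members at least 2-fold higher was 3, or 2 with a pseudocount of 5, on the TPM scale, with the median subtracted or at 4-fold. The number lower was 1 as reported and 0 with a pseudocount of 5, with a minimum of 5 FPKM or at 4-fold, and 2 at 1.5-fold or with the median ratio subtracted. Cyp7b1 kept its direction wherever it was evaluated, from -2.89 to -0.55. Cyp7b1 and Cyp27a1 fell below the minimum of 5 FPKM, so the 0 lower at that setting came from leaving out Cyp7b1. The median ratio of the members was 0.42 with a pseudocount of 0.1, 0.19 with 5, and -0.23 with the median of all detected genes subtracted. Of 11288 detected genes, those higher numbered 983 with a pseudocount of 5, 946 with the median subtracted, 5519 at 1.5-fold and 419 at 4-fold. Those lower numbered 691, 1627, 1408 and 463 in the same order. On the TPM scale 3431 genes were higher and 1207 lower, and with a minimum of 5 FPKM 2102 and 841. The numbers of detected genes differed at these last settings. Other pathway genes higher numbered 15 with a pseudocount of 5, 13 with the median subtracted and 7 at 4-fold, and those lower 7 with the median subtracted, 5 at 1.5-fold and 0 at 4-fold. No alternative turned the sign of a member past 2-fold. No paired analysis was possible because each group had 1 library. Depth limited Cyp7b1 most, with 39 estimated reads in the library labelled as RON TK-/-.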
